A study of Mus musculus with 12 samples.

Results

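The 9 genes described here encode the B cell receptor complex and the proteins that carry or tune its signal: Cd79a, Cd79b, Ms4a1, Cd22, Cd72, Blnk, Btk, Syk and Lyn. They were chosen by symbol, and each matched 1 row among the 53379 genes of the deposited count table. Messenger RNA was sequenced from 12 samples of a B lymphoma line of Eµ-myc mice, C57BL/6 in background, whose Myc transgene is under the µ heavy chain enhancer and so active in B lineage cells. The 4 groups of 3 samples were cells left unstimulated, and cells that received the mouse cytokine interferon-γ (IFN-γ, recombinant, 5 ng/mL) with a labelled exposure of 1 h, 6 h or 24 h. Per the labels' protocols, stimulation was blocked at different times with a neutralising antibody to IFN-γ at 50 µg/mL (clone XMG1.2), and stimulated cells were harvested at 24 h. All samples carry the Eµ-myc transgene and were grown in RPMI medium with 10% FCS. The labels name 1 line and leave unsaid if replicates were grown as separate cultures. The p-values therefore reflect the spread among these samples alone, and that spread may be technical. They also do not say whether unstimulated or 24 h cells received antibody.

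A B cell receptor is a membrane immunoglobulin paired with the CD79A and CD79B chains, whose tails carry tyrosine motifs that are phosphorylated when antigen is bound. The kinase LYN starts that phosphorylation, SYK docks on the motifs and amplifies the signal, and the adaptor BLNK then brings the kinase BTK to its substrate phospholipase Cγ2. CD22 and CD72 are surface receptors that recruit phosphatases and dampen the signal, and CD20, the product of Ms4a1, is a membrane protein of B cells that affects calcium flux and is the target of therapeutic antibodies. IFN-γ signals through JAK kinases and acts on B cells as well as on macrophages.

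Library totals ran from 49440358 to 67096610 counts. Between 69.9% and 73.9% of low counts (1 to 20) were even in each library, as when both mates of a pair are counted. Levels below are in CPM (counts scaled to library size with TMM factors). Pairs of samples within a group differed by more than sampling noise (chi-square per degree of freedom 2.53 to 8.48 on halved counts), with the highest values for replicate 3 of the 6 h group. The B lineage label was checked against 8 further markers, of which 6 were tested. Their summed level was 2650 to 2780 CPM in unstimulated cells, 2710 to 2770 after 1 h, 2730 to 2850 after 6 h and 2470 to 2500 CPM after 24 h. Among them Ebf1 was called higher after 1 h (log2 0.23) and 6 h (0.32) and lower after 24 h (-0.25). Cr2 and Fcer2a, found on mature B cells, had at most 1 and 8 counts in any library. Of 11 T and NK cell markers 5 were at 0 in all 12 libraries (Cd4, Cd8a, Trbc2, Ncr1, Nkg7), and the list summed to 0.758 to 1.36 CPM after 24 h and 0.741 to 1.17 CPM in unstimulated cells. Of 10 myeloid markers 3 were at 0 (Ly6g, S100a8, S100a9), with sums of 1.44 to 1.77 CPM after 24 h and 1.82 to 2.08 CPM in unstimulated cells. The 6 plasma cell markers, of which 4 were tested, summed to 678 to 709 CPM in unstimulated cells, 756 to 797 after 1 h, 776 to 807 after 6 h and 547 to 553 CPM after 24 h. Most of that sum was Irf4, which was called higher after 1 h (log2 0.29, edgeR adjusted p = 0.000416) and 6 h (0.32, edgeR adjusted p = 2.06e-05) and lower after 24 h (-0.55, edgeR adjusted p = 3.22e-11). Prdm1, at 1.73 ± 0.286 CPM after 24 h and 0.814 ± 0.410 CPM in unstimulated cells, rose 2.12-fold (edgeR adjusted p = 0.00618), Sdc1 (-0.07) and Mzb1 (0.01) were not called after 24 h, and Jchain had at most 9 counts in any library. Whether the shift of the B lineage and plasma cell sums has a part in the results below was not tested. In bulk RNA, fewer cells of a type and less RNA per cell cannot be told apart.

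The 9 genes were measured at depth in every library: the lowest count was 366, for Ms4a1, and the highest 34837, for Syk, so all 9 passed the filter on low counts. Between genes, levels were compared as CPM per kilobase of annotated exon. In unstimulated cells the receptor chains were at the top, Cd79a at 262 ± 6.26 and Cd79b at 247 ± 11.9 CPM per kb. The libraries of these neighbours in the order overlapped. Cd72 (72.5 ± 2.33) and Btk (71.9 ± 1.60) came next and also overlapped, followed by Syk (56.4 ± 1.74) and Cd22 (54.4 ± 1.30 CPM per kb), which overlapped, then Blnk at 37.7 ± 1.36 and Lyn at 34.4 ± 0.392 CPM per kb, which did not. Ms4a1 was far below the others at 1.39 ± 0.156 CPM per kb. With the length of the principal transcript in place of all exons, Cd79b led (296 ± 14.2 CPM per kb) and Blnk (108 ± 3.89) stood above Syk and Btk, so the middle of this order depends on the isoform assumed, while Ms4a1 (2.79 ± 0.315) was last and Lyn the next lowest (41.4 ± 0.472) with either length. After 24 h Cd72, at 55.6 ± 1.79 CPM per kb of exon, was below Cd22, at 62.6 ± 1.06, while in unstimulated cells it was above it. Per kb of principal transcript Cd72 was above Cd22 in both groups, at 134 ± 4.32 against 79.4 ± 1.35 after 24 h and 175 ± 5.61 against 69.0 ± 1.65 in unstimulated cells. Levels of Cd72 per kb assume that reads from every base of the length used were counted. That is not known for the 41.6% of its exon bases shared with exons of Tesk1 on the opposite strand.

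**Figure D1:**
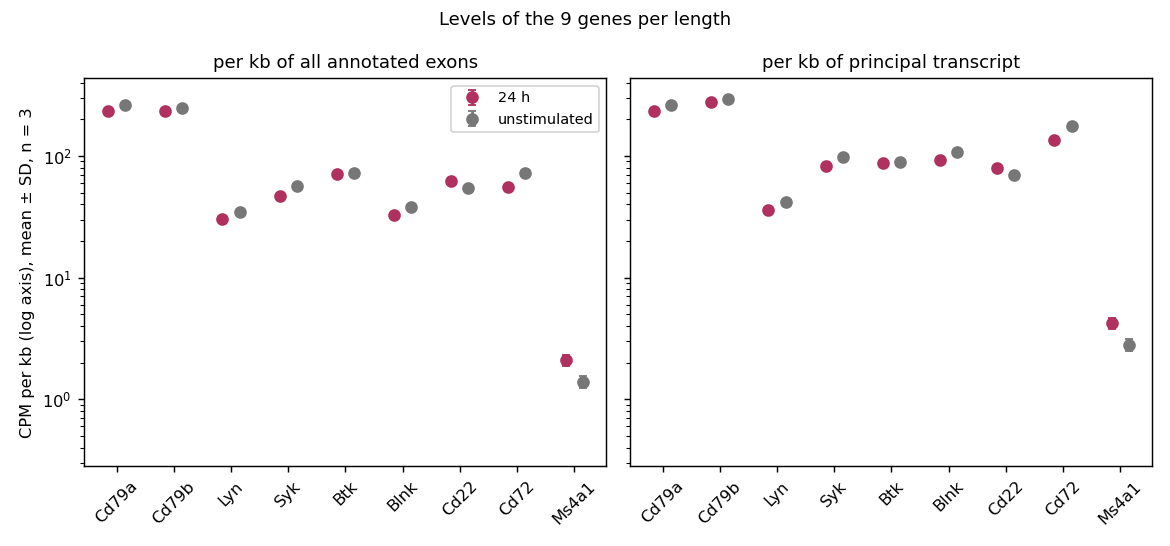
CPM per kilobase (log axis) of the 9 genes after 24 h of IFN-γ and in unstimulated cells, with the length of all annotated exons (left) or of the principal transcript (right); points are means and bars SD of 3 samples. The receptor chains Cd79a and Cd79b stand highest and Ms4a1 lowest, at 2.10 CPM per kb of exon after 24 h and 1.39 in unstimulated cells.

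After the whole 24 h of IFN-γ, 5 of the 9 genes were lower than in unstimulated cells (Cd72, Syk, Blnk, Lyn and Cd79a) and 2 were higher (Ms4a1 and Cd22). The changes were small, from -0.38 for Cd72 to 0.60 for Ms4a1 on the log2 scale, so each was within a 1.51-fold rise or a fall to 0.767 of the level in unstimulated cells. A gene is called where edgeR's quasi-likelihood F test gave it a p under 0.05 after Benjamini-Hochberg adjustment across 14299 genes. Of all genes tested 18.7% were called in this comparison, 10.3% higher and 8.35% lower, and 25.5% of the 2380 genes that averaged 100 CPM or more, as all members but Ms4a1 did. The median log2 fold change was -0.16 over the 9 genes and 0.00 over all genes tested. The summed level of the 9 genes was 2140, 2210 and 2170 CPM after 24 h, against 2420, 2350 and 2390 CPM in unstimulated cells.

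**Figure D2:**
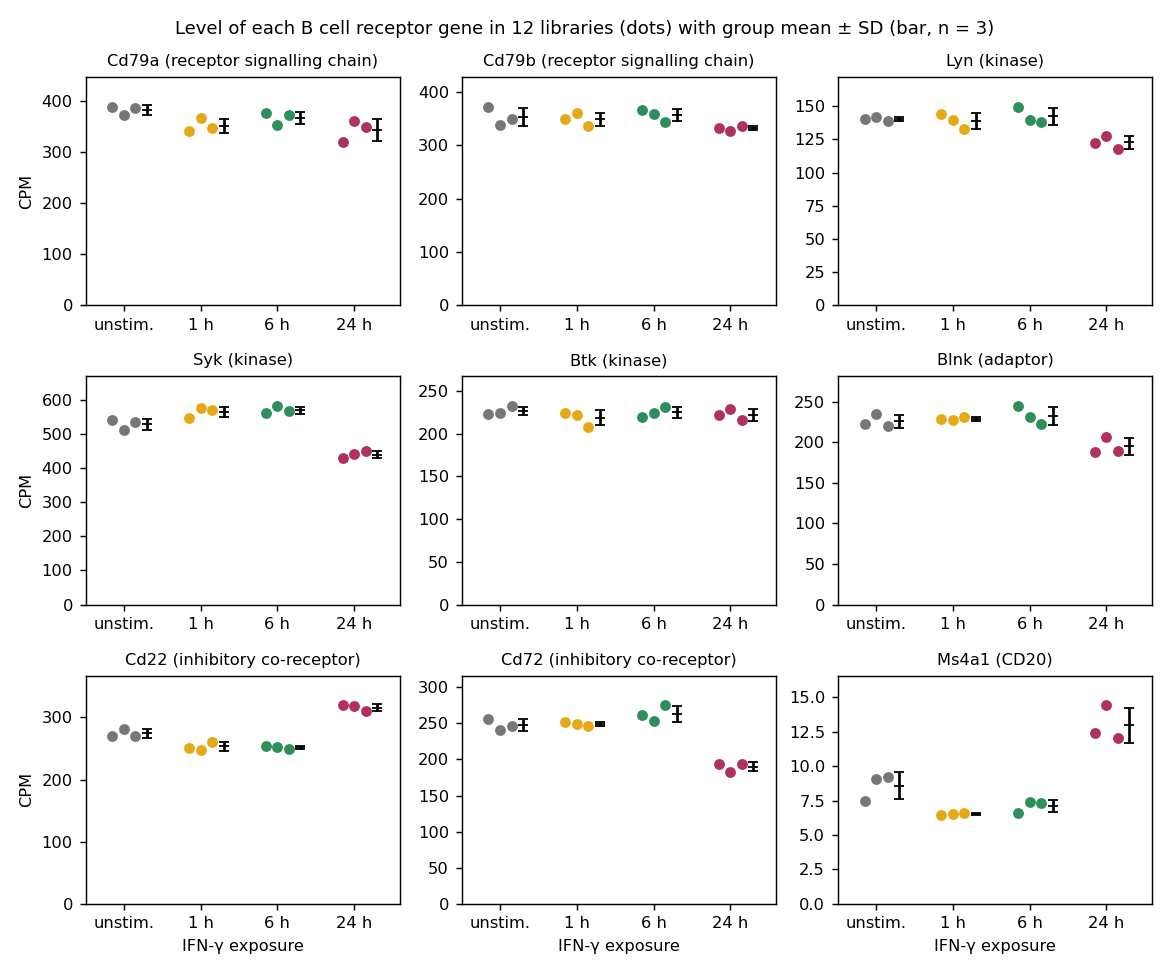
Level in CPM of each of the 9 genes in every library, by IFN-γ exposure; dots are libraries and bars the mean ± SD of 3 samples. The 24 h libraries of Cd72, Syk, Blnk and Lyn lie below, and those of Cd22 and Ms4a1 above, all 9 other libraries, while those of Btk overlap them.

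The signalling chains of the receptor changed little. Cd79a (ENSMUSG00000003379.7; chromosome 7, 24897381 to 24902197 on GRCm38) had 388.3, 371.6 and 386.2 CPM in unstimulated cells, 341.0, 367.0 and 347.2 after 1 h, 375.5, 353.2 and 372.5 after 6 h, and 319.3, 359.9 and 349.6 CPM after 24 h. Each 24 h library was below each unstimulated library, and replicate 1 was the lowest of the 12. The log2 fold change after 24 h was -0.16 ± 0.045 (SE; edgeR adjusted p = 0.0151). That call was lost without IFNg_24h replicate 1 (adjusted p = 0.158), unstimulated replicate 1 (0.0775) or unstimulated replicate 3 (0.0582). Cd79b (chromosome 11, 106311341 to 106314762) had 372.0, 339.0 and 348.6 CPM in unstimulated cells, 349.3, 360.2 and 336.0 after 1 h, 367.0, 359.6 and 344.5 after 6 h, and 333.3, 327.7 and 336.7 CPM after 24 h. Its 24 h libraries lay just below the unstimulated ones without overlap, and it was not called (-0.09, 95% interval -0.17 to 0.001; edgeR adjusted p = 0.168). The chains form a heterodimer, and the ratio of Cd79a to Cd79b per kilobase of exon was 0.941, 1.08 and 1.02 after 24 h against 1.03, 1.08 and 1.09 in unstimulated cells, groups that overlapped.

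Of the kinases and the adaptor that act behind the receptor, Syk, Blnk and Lyn fell after 24 h and Btk was not called. Syk (chromosome 13, 52583173 to 52648792), the kinase that binds the phosphorylated chains, had 540.9, 510.1 and 534.3 CPM in unstimulated cells, 546.5, 575.1 and 568.8 after 1 h, 561.5, 581.0 and 565.6 after 6 h, and 429.3, 439.4 and 449.3 CPM after 24 h. The 24 h libraries were the lowest of the 12, and the libraries of the blocked exposures were all above the unstimulated ones. Syk fell to 439.3 ± 9.98 CPM after 24 h, against 528.4 ± 16.2 CPM in unstimulated cells (SD, n = 3 each), a log2 fold change of -0.27 ± 0.040 (edgeR adjusted p = 1e-05).

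Blnk (chromosome 19, 40928927 to 40994535) had 222.6, 235.3 and 220.1 CPM in unstimulated cells, 228.2, 227.2 and 231.2 after 1 h, 244.6, 231.4 and 222.6 after 6 h, and 188.4, 206.8 and 189.8 CPM after 24 h. Its 24 h libraries were below the other 9, with a log2 fold change of -0.21 ± 0.045 against unstimulated cells (edgeR adjusted p = 0.000912). Lyn (chromosome 4, 3678115 to 3813122), a kinase that also phosphorylates the motifs of CD22 and CD72, had 140.3, 141.8 and 138.6 CPM in unstimulated cells, 144.4, 139.5 and 132.5 after 1 h, 149.4, 139.4 and 138.0 after 6 h, and 122.2, 127.9 and 118.0 CPM after 24 h. The 24 h libraries were again the lowest, at a log2 fold change of -0.19 ± 0.045 (edgeR adjusted p = 0.00254).

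Btk (chromosome X, 134542336 to 134583570), whose loss causes X-linked agammaglobulinaemia in humans, had 223.1, 224.0 and 232.2 CPM in unstimulated cells, 224.6, 222.0 and 208.3 after 1 h, 219.3, 223.6 and 231.5 after 6 h, and 221.3, 229.3 and 215.5 CPM after 24 h. All 4 groups overlapped. After 24 h the log2 fold change was -0.03 with a 95% interval from -0.11 to 0.06 (edgeR adjusted p = 0.697).

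The inhibitory co-receptors moved in opposite directions. Cd22 (chromosome 7, 30865402 to 30880342), a lectin that binds sialic acid, had 270.2, 281.7 and 270.4 CPM in unstimulated cells, 250.4, 248.2 and 260.8 after 1 h, 253.5, 252.5 and 249.6 after 6 h, and 319.4, 318.0 and 309.5 CPM after 24 h. Its 24 h libraries were the highest of the 12, and every library of the blocked exposures was below every unstimulated one. It rose to 315.6 ± 5.36 CPM after 24 h, against 274.1 ± 6.56 CPM in unstimulated cells (SD, n = 3 each), a log2 fold change of 0.20 ± 0.039 (edgeR adjusted p = 0.000295).

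Cd72 (chromosome 4, 43446462 to 43454628), a receptor for semaphorin CD100, had 256.7, 241.1 and 246.3 CPM in unstimulated cells, 252.1, 248.5 and 246.3 after 1 h, 261.2, 253.2 and 275.1 after 6 h, and 193.7, 183.1 and 193.7 CPM after 24 h. Each 24 h library was far below the other 9, whose range was 241.1 to 275.1 CPM. It fell to 190.2 ± 6.13 CPM after 24 h, against 248.0 ± 7.96 CPM in unstimulated cells, a log2 fold change of -0.38 ± 0.042 (edgeR adjusted p = 5.23e-08), the largest fall of the 9. Of the bases in its annotated exons 41.6% are also covered by exons of Tesk1 on the opposite strand, and the strand setting of the counting is not given in the sources used here. Tesk1 had 16759 counts over the 12 libraries, against 163731 for Cd72, and was itself lower after 24 h (-0.25 ± 0.068, edgeR adjusted p = 0.00919), and without strand the reads of the 2 genes in these bases cannot be told apart. For Cd22 and Lyn the opposite-strand genes with exon overlap held 13 and 67 counts in all.

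Promoter windows of RefSeq (GRCm38.p6, 250 bases before to 50 after a start site) were at hand for 6 of the 9 genes: Cd79a, Cd22, Cd72, Blnk, Btk and Syk. The parts free of annotated exons are shown for the gene with the largest fall, for the receptor chain Cd79a, and for Btk, which was not called (its RefSeq start lies inside the span of the GENCODE gene given above), each 5′ to 3′ on the strand of the gene, with the core GAGGAA bound by the factor PU.1 (on either strand) in capitals.
Cd72, chr4:43454629-43454876, minus strand: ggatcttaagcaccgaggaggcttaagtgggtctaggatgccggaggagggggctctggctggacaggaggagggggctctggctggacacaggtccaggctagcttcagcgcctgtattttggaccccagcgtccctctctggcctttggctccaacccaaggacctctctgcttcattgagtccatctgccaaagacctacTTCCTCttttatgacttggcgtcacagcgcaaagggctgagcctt
Cd79a, chr7:24897247-24897380, plus strand: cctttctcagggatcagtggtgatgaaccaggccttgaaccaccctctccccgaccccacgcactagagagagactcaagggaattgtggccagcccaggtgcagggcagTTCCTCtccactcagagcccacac
Btk, chrX:134583141-134583390, minus strand: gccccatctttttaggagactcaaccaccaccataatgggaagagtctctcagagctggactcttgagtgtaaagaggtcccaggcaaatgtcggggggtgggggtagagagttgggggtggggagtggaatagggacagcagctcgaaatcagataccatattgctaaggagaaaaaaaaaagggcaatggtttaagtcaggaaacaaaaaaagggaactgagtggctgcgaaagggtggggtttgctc
The interferon motifs TTCNNNGAA (the GAS site) and the ISRE core (GAAA, any 2 bases, GAAA) were in none of the 6 genes' windows on either strand, and were in 8.30% and 3.44% of all 32851 windows. The core GAGGAA was in the windows of Cd79a, Cd72, Btk (after the start site, outside the bases shown) and Syk (start site 2 only). It was in 28.3% of all windows. CCCNNGGG, a form of the EBF1 site, was in the window of Cd22 and in 13.7% of all windows. The octamer ATGCAAAT was in that of Blnk and in 1.74% of all windows. Counted by gene, the GAS site was in 9.55% of 27025 genes and the ISRE core in 3.99%. GAGGAA was in 31.3% of these genes, CCCNNGGG in 15.4% and the octamer in 1.97%. None of these searched motifs overlapped another in these windows, and a match describes letters, not binding.

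Ms4a1 (chromosome 19, 11249675 to 11266241) had the largest change of the 9 and the lowest level. It had 7.46, 9.05 and 9.20 CPM in unstimulated cells, 6.43, 6.56 and 6.56 after 1 h, 6.56, 7.41 and 7.34 after 6 h, and 12.39, 14.42 and 12.07 CPM after 24 h. The 24 h libraries were the highest of the 12 and those of the blocked exposures were all below the unstimulated ones. It rose to 12.96 ± 1.27 CPM after 24 h, against 8.57 ± 0.968 CPM in unstimulated cells (SD, n = 3 each), a 1.51-fold change (log2 0.60 ± 0.098; edgeR adjusted p = 4.22e-05).

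**Figure D3:**
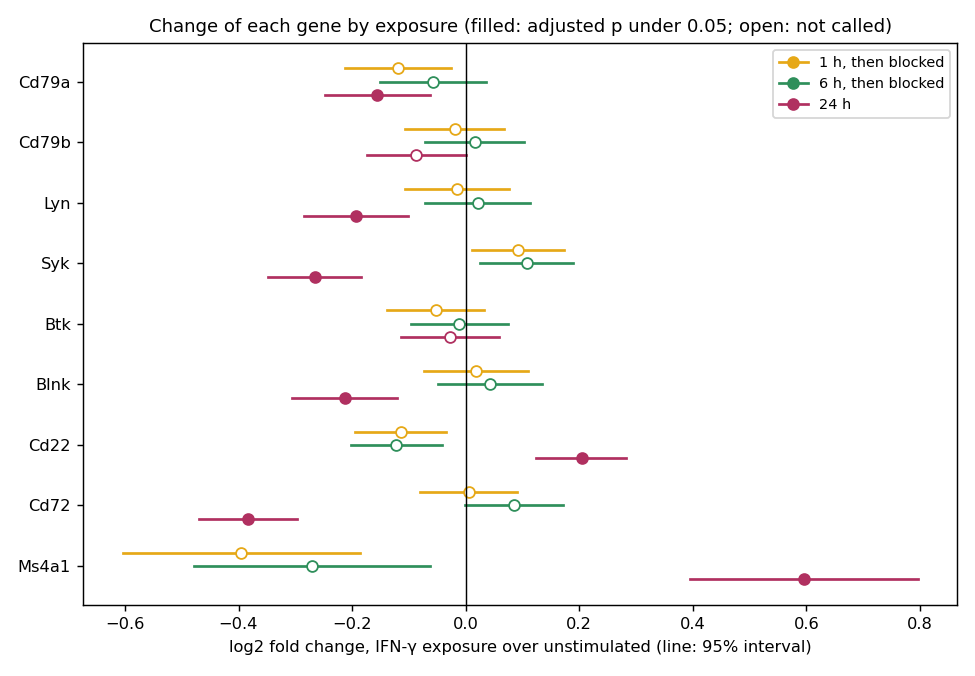
Log2 fold change of each of the 9 genes for each IFN-γ exposure over unstimulated cells, with 95% intervals; filled points have an adjusted p under 0.05. Filled points appear after 24 h only, 5 to the left of 0 and 2 to the right, and for Ms4a1, Cd22, Syk, Cd72 and Blnk both blocked exposures lie on the other side of 0 from 24 h, with intervals that include 0 for Cd72 and Blnk.

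Cells blocked after 1 h or 6 h were set against unstimulated cells in the same way. By edgeR 0 of the 9 genes were called after 1 h, where 0.42% of all genes were called (0.273% higher, 0.147% lower), and 0 after 6 h, where 1.59% were (1.17% higher, 0.427% lower). Of genes that averaged 100 CPM or more 0.882% were called after 1 h and 3.66% after 6 h. At an unadjusted p under 0.05, 4 of the 9 passed after 1 h and 3 after 6 h, beside 9.26% and 14.0% of all genes. DESeq2 called 1 gene after each (Ms4a1 after 1 h, adjusted p = 0.0253, and Cd22 after 6 h, adjusted p = 0.0366), and limma-voom called 0. Over all genes DESeq2 called 141 after 1 h and 398 after 6 h, edgeR 60 and 228, and limma-voom 44 and 180. Ms4a1 was at 8.57 ± 0.968 CPM in unstimulated cells, 6.52 ± 0.0734 CPM after 1 h and 7.10 ± 0.469 CPM after 6 h (SD, n = 3 each), with log2 fold changes of -0.39 after 1 h (edgeR adjusted p = 0.0882) and -0.27 after 6 h (edgeR adjusted p = 0.199). Cd22 had -0.11 after 1 h and -0.12 after 6 h (edgeR adjusted p = 0.283 and 0.121). Syk had 0.09 after 1 h and 0.11 after 6 h (edgeR adjusted p = 0.449 and 0.189). The 95% intervals of these 3 genes left out 0 in both comparisons, while their adjusted p did not pass. Cd79a had -0.12 after 1 h, with each 1 h library below each unstimulated one, and was not called (edgeR adjusted p = 0.366). The 2 comparisons share the unstimulated samples.

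Set directly against the blocked exposures, the 24 h cells had the same 2 genes higher, Ms4a1 and Cd22, and 4 lower, Cd72, Syk, Blnk and Lyn. This was so against 1 h, where 18.9% of all genes were called (10.2% higher, 8.78% lower), and against 6 h, where 16.5% were (8.92% higher, 7.63% lower). Of genes that averaged 100 CPM or more 28.8% were called against 1 h and 23.8% against 6 h. Ms4a1 was higher by 0.99 ± 0.099 than after 1 h and by 0.87 ± 0.099 than after 6 h on the log2 scale (edgeR adjusted p = 8.78e-09 and 1.16e-07). Cd72 differed by -0.39 ± 0.042 from 1 h and by -0.47 ± 0.042 from 6 h (edgeR adjusted p = 3.77e-08 and 1.03e-09). Syk differed by -0.36 ± 0.040 and -0.37 ± 0.040, and Cd22 by 0.32 ± 0.039 and 0.33 ± 0.039, in the same order. These comparisons share the 24 h samples. For Lyn the difference from 1 h, -0.18 ± 0.045 (edgeR adjusted p = 0.00495), was not called without IFNg_1h replicate 1 (adjusted p = 0.0504). Cd79a was not called against 1 h (-0.04, edgeR adjusted p = 0.645) or 6 h (-0.10, edgeR adjusted p = 0.149), nor were Cd79b and Btk. With a trend in exon length removed, both Cd79a (edgeR adjusted p = 0.0488) and Cd79b (edgeR adjusted p = 0.0473) were called lower than after 6 h. Between 6 h and 1 h 0 of the 9 were called by edgeR, 0 by DESeq2 and 0 by limma-voom, 0 had an unadjusted p under 0.05, and 0.0979% of all genes were called (0.0839% higher, 0.014% lower; 0.252% of genes that averaged 100 CPM or more). The widest interval there was that of Ms4a1, from -0.09 to 0.34.

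The rest of the receptor pathway was described from 4 lists with 81 genes, chosen with earlier results of these data known, of which 73 were tested. After 24 h 10 of the 73 rose and 18 fell, 38.4% together, where 18.7% of all genes were called (10.3% higher, 8.35% lower), and their median log2 fold change was -0.04. Ighm, the µ heavy chain, was at 2891 ± 16.6 CPM after 24 h and 2942 ± 50.2 CPM in unstimulated cells (-0.02, edgeR adjusted p = 0.702). Of 5 tested chain genes 1 was called: Ighd, the δ heavy chain, rose to 23.1 ± 0.798 CPM after 24 h, against 16.9 ± 1.36 CPM in unstimulated cells (log2 0.45 ± 0.086, edgeR adjusted p = 0.000347). Igkc, the κ light chain, was not called after 24 h (-0.07, edgeR adjusted p = 0.367).

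Of 12 tested co-receptors and other surface receptors, 3 rose and 2 fell after 24 h (all genes: 10.3% called higher, 8.35% lower). Fcmr, the receptor for the Fc part of IgM, had the largest fall, to 1.16 ± 0.116 CPM after 24 h, against 3.84 ± 0.566 CPM in unstimulated cells (log2 -1.72 ± 0.16, edgeR adjusted p = 1.55e-09). Fcrla, an Fc receptor-like protein inside B cells, fell to 185.3 ± 0.610 CPM, against 267.3 ± 4.41 CPM in unstimulated cells. Ptprc, the phosphatase CD45 that activates LYN, rose by 0.43 ± 0.041 on the log2 scale (edgeR adjusted p = 3.3e-09), and the tetraspanin genes Cd53 and Cd81 rose by 0.35 and 0.14 (edgeR adjusted p = 1.25e-05 and 0.0493), the libraries of Cd81 overlapping.

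Of 41 tested kinases, adaptors and enhancers, 6 rose and 11 fell (all genes: 10.3% called higher, 8.35% lower). Themis2, an adaptor that lowers the threshold of receptor signalling, rose to 39.6 ± 2.69 CPM after 24 h, against 14.4 ± 1.74 CPM in unstimulated cells (log2 1.46 ± 0.079, edgeR adjusted p = 9.72e-15). Pik3ap1, the adaptor BCAP that links the receptor to PI3 kinase, fell to 59.0 ± 3.94 CPM, against 95.7 ± 4.38 CPM in unstimulated cells (-0.70 ± 0.062). Itpr3, a calcium channel of the endoplasmic reticulum, fell to 18.7 ± 0.240 CPM, against 28.1 ± 1.87 CPM. Plcg2, the phospholipase that BTK activates, was among those that fell (-0.18, edgeR adjusted p = 0.00316).

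Of 15 phosphatases and negative regulators, 0 rose and 5 fell by edgeR (all genes: 10.3% called higher, 8.35% lower). Inpp5d, the lipid phosphatase SHIP1, fell by 0.27 on the log2 scale (SE 0.041, edgeR adjusted p = 1.25e-05), and Sh2b3, the adaptor LNK, fell by 0.27 (SE 0.049, edgeR adjusted p = 0.000183). Ptpn6, the phosphatase SHP-1 that CD22 and CD72 recruit, fell by 0.24 (edgeR adjusted p = 0.00547), and the adaptor gene Dok3 by 0.24 (edgeR adjusted p = 0.00129). Ptpn22 fell by 0.95 (SE 0.33, edgeR adjusted p = 0.0463) at about 1 CPM, a call lost in 11 of 23 alternatives, up to an adjusted p of 0.233 without IFNg_24h replicate 3. Cd53, Cd81, Plcg2, Ptpn6 and Dok3 were named after their values were seen.

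**Figure D4:**
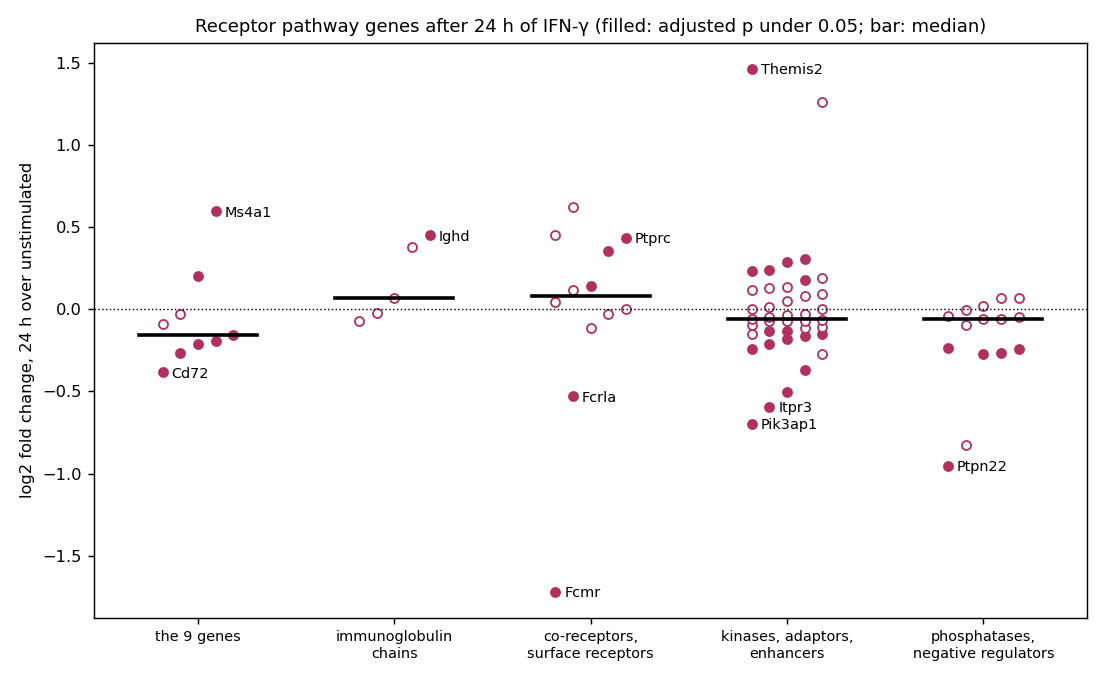
Log2 fold change after 24 h of IFN-γ over unstimulated cells for the 9 genes and for 4 lists of other receptor pathway genes (genes tested only); filled points have an adjusted p under 0.05 and bars are medians. The 9 genes lie between -0.38 and 0.60, while single genes of the other lists lie beyond them, from Fcmr at -1.72 to Themis2 at 1.46.

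After the 6 h exposure, 2 of the 73 pathway genes were called higher and 4 lower by edgeR, 8.22% together, where 1.59% of all genes were called (1.17% higher, 0.427% lower). After 1 h 0 were called by edgeR, where 0.42% of all genes were. Igkc was at 1755 ± 132 CPM after 6 h, against 2096 ± 113 CPM in unstimulated cells (log2 -0.26 ± 0.049, edgeR adjusted p = 0.00396), a call lost without IFNg_6h replicate 2 (adjusted p = 0.0653). Rasgrp1, which activates RAS (-0.21), and Map4k1, a kinase that restrains the receptor (-0.17), were among the others that were lower. Inpp5d (0.19) and Fcgr2b, the inhibitory receptor for IgG (0.17), were higher. Each of these 4 calls was lost in 5 to 9 of 23 alternatives, among them the fit to the 6 libraries compared and the fit without IFNg_6h replicate 1, with adjusted p up to 0.203 for Fcgr2b without unstimulated replicate 3. Inpp5d was higher after the blocked 6 h and lower after 24 h.

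The genes most like each changed gene over the 12 libraries were found among 7719 genes that averaged 10 CPM or more, by Pearson's r of log2(CPM + 1), as a description with no test. The 24 h libraries stood apart from the other 9 on the first principal component of all genes, which held 67.2% of the variance, and the 12 points of each correlation share that split. Ms4a1 and Cd22 shared Srgn, which encodes the proteoglycan serglycin, among their nearest 2 (r = 0.973 and 0.970), with Arhgef6 (0.984) for Ms4a1 and Pld4 (0.963) for Cd22. Cd72 was nearest to Vpreb1, a part of the surrogate light chain of precursor B cells (0.975), and to Snn (0.974). Syk was nearest to Xylt1 (0.984) and Amigo1 (0.981), Blnk to Wee1 (0.955) and Tgfb1 (0.950), Lyn to Ahctf1 (0.930) and Dhx40 (0.928), and Cd79a to Spryd3 (0.932) and Capns1 (0.918). Of these nearest genes, Arhgef6, Spryd3 and Capns1 were not called after 24 h against unstimulated cells (edgeR adjusted p = 0.0823, 0.369 and 0.0837). The others were called. The 9 genes lie on 6 chromosomes, with Cd79a and Cd22 on chromosome 7, Cd72 and Lyn on chromosome 4, and Ms4a1 and Blnk on chromosome 19.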

How the data were processed

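Messenger RNA of 12 samples in 4 groups of 3 was sequenced. The submitters' processing notes name Picard, the aligner STAR (2.5.2a), the counter featureCounts (1.4.3-p1) and the build mm10, with no order, and the authors deposited raw counts per gene in 1 table. Gene IDs were named with GENCODE M21 (GRCm38), which held all 14299 genes tested, 12759 of them in the same version. From the counts, edgeR 4.0.16 (R 4.3.3) kept genes with filterByExpr, scaled by TMM and fitted all 12 libraries by robust quasi-likelihood (8 residual degrees of freedom, common biological coefficient of variation 0.0579). The tests were two-sided, with Benjamini-Hochberg adjustment over all genes tested. DESeq2 1.42.0, limma-voom (limma 3.58.1), other filters, scalings, trend corrections and leaving out each library were alternatives. The 9 genes and the pathway lists were chosen with earlier results of these data known. All 9 are named, with the 3 called genes of largest change per pathway list after 24 h, any called after 1 h or 6 h, and the 2 genes most like each called member; 1 gene that the rule names is not reported here. Depth was 49440358 to 67096610 counts per library.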

Additional observations from a re-analysis of the deposited data

Results flagged for a closer look

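For 6 of the 9 genes, the change after 24 h differed from that after a blocked exposure, both against the same unstimulated samples. The difference is the direct comparison of 24 h with the blocked exposure by edgeR, on the log2 scale, and only the 9 genes were examined. Of all genes tested 18.9% were called for 24 h against 1 h and 16.5% for 24 h against 6 h. It was 0.99 from 1 h and 0.866 from 6 h for Ms4a1, and 0.318 from 1 h and 0.326 from 6 h for Cd22. For Cd72 it was -0.389 from 1 h and -0.468 from 6 h, and for Syk -0.359 from 1 h and -0.374 from 6 h. For Blnk it was -0.231 from 1 h and -0.256 from 6 h, and for Lyn -0.178 from 1 h and -0.214 from 6 h. The highest adjusted p of these was 0.00495, for Lyn against 1 h.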

How the results depend on the processing

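No value of the 9 genes that was called changed sign under any of 23 alternatives. The number of the 9 called against unstimulated cells became 1 after 6 h with DESeq2 (Cd22) and 1 with a GC trend removed (Syk, adjusted p = 0.0296), and 1 after 1 h with DESeq2, with a filter of at least 1 count in any library, and with a GC trend removed (Ms4a1 in each), against 0 in edgeR. For 24 h against 6 h it was 8 with an exon length trend removed, against 6. The cause was not tested. Leaving out each library in turn gave 6 to 7 called after 24 h against unstimulated cells, 6 to 6 against 6 h, 5 to 6 against 1 h, and 0 to 0 in the other 3 comparisons. Over all genes tested, the main counts were 2667 for 24 h, 228 for 6 h and 60 for 1 h against unstimulated cells, 2366 for 24 h against 6 h, 2707 for 24 h against 1 h and 14 for 6 h against 1 h. At an adjusted p under 0.01 they were 1562, 80, 21, 1403, 1650 and 8. The 6 h, 1 h and last counts were 398, 141 and 40 with DESeq2, 413, 174 and 36 with the filter of at least 1 count in any library, and 95, 104 and 9 in fits to the 6 libraries compared, and limma-voom gave 9 for the last. Leaving out each library gave 1816 to 3016, 89 to 531 (531 without IFNg_6h replicate 3), 15 to 122, 1682 to 2798, 1893 to 3053 and 8 to 24. The labels do not say whether samples with the same replicate number were paired, and this check cannot settle it because the ranges overlap. Deviations of same-number samples correlated by -0.166 to 0.146 (median 0.029), with 3 of 18 pairs over 0.1. Those of samples with different numbers correlated by -0.146 to 0.161 (median -0.018), with 2 of 36 over 0.1. A library's best partner in another group had its number in 15 of 36 cases. With the replicate block the counts of the 9 genes called were 7 after 24 h, 0 after 6 h and 0 after 1 h against unstimulated cells, and 2746, 265 and 78 of all genes. Of the 9 genes Ms4a1, at 366 to 812 counts per library, had the fewest counts and the widest intervals.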
